A study of Homo sapiens with 4 samples.

Results

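The epidermal growth factor (EGF) receptors and their ligands were followed across 4 Affymetrix PrimeView arrays of human colorectal cancer cells given siRNA against BORIS or control siRNA. Of the 10 genes listed, EGFR, ERBB2 and ERBB3 encode receptors, EREG, BTC, TGFA, HBEGF, EGF and AREG encode ligands, and ERRFI1 encodes an inhibitor of the receptors. Every probe set that the array's annotation pairs with 1 of these genes alone was taken, which gave 32 probe sets of 49395 and covered 9 of the 10 genes. AREG was not analysed here.

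The 4 groups were HCT116 cells with BORIS siRNA, HCT116 cells with control siRNA, Caco-2 cells with BORIS siRNA and Caco-2 cells with control siRNA, with 1 array each. All were transfected with Lipofectamine RNAiMAX in DMEM with fetal bovine serum, and RNA was taken after 3 days of siRNA. HCT116 and Caco-2 are established lines grown from human colorectal carcinomas. BORIS, the protein of CTCFL, is a paralog of the chromatin protein CTCF and is normally made in the testis. The labels name 1 siRNA treatment a line without its sequence, and state no replicate culture.

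EGF ligands are made as membrane-anchored precursors, and proteases of the ADAM family cut most of them free. A ligand brings 2 receptors of the family together, and their kinase domains then switch on the RAS-ERK and PI3K-AKT pathways. ERBB2 has no known ligand of its own, and ERBB3 has little kinase activity and signals through its partners. In colorectal cancer EREG and AREG are known as markers of tumours that depend on EGFR.

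BTC and HBEGF were the members past 1.5-fold between siRNAs on their brightest probe sets, a limit chosen after the data were seen. HBEGF passed it in HCT116 only, in the opposite direction to BTC. Neither passed the test of an effect shared by the lines. The 250 bases before their annotated starts are shown, from RefSeq on GRCh38.p14, 5′ to 3′. Capitals mark CCCTC or its reverse complement GAGGG, the letters from which CTCF takes its name, in any overlap.
BTC promoter, chr4:74794524-74794773, minus strand: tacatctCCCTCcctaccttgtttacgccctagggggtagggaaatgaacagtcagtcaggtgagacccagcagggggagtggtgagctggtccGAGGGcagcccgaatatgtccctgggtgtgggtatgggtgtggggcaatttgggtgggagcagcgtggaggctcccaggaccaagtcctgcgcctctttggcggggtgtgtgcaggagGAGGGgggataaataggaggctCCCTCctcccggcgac
HBEGF promoter, chr5:140346604-140346853, minus strand: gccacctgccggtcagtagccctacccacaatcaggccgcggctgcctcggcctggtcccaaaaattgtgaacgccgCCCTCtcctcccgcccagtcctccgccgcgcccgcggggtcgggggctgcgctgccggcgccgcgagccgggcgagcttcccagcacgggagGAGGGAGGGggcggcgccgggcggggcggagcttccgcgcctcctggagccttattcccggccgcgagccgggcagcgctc

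The BTC window holds 4 matches and the HBEGF window 3, one pair of them overlapping. The letters are common, since 66.6% of all 35116 promoter windows of this length hold CCCTC on either strand, and 7 of the 11 windows found for 9 of the 10 listed genes did. GC content was 62% for BTC and 76.4% for HBEGF. Neither window holds TGACTCA, the AP-1 site, which 4.20% of all windows hold on either strand. Neither holds TATAAA, the TATA box, which 10.7% of all windows hold. A match of letters is a description of the sequence and not a binding site.

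Values are log2 signals per probe set, and a difference of 1 is 2-fold. Array medians lay between 5.46 and 5.48. Background was taken from olfactory receptor genes, which are silent in most cells: 95% of their probe sets lay below it. It was between 4.8 and 5.15 by array. A gene is given by its brightest probe set and counted as expressed when that reached the array median on at least 1 array compared. CTCFL could not serve as a check of the knockdown: 6 of its 7 probe sets lay below background on all 4 arrays and 0 reached the array median. Poly-A spike-ins, added to the RNA before labelling, averaged 8.44 with BORIS siRNA and 7.57 with control siRNA in HCT116, against 6.71 and 6.78 in Caco-2. Hybridisation controls averaged 10.81 with BORIS siRNA and 10.47 with control siRNA in HCT116, against 10.10 and 10.09 in Caco-2. The 3' minus 5' difference of ACTB was 1.47 and 1.34 in HCT116, and 0.97 and 1.05 in Caco-2. That of GAPDH was 0.027 and 0.041 in HCT116, and -0.0048 and 0.026 in Caco-2. The part of these controls in the siRNA differences and in those between lines was not tested. Of 9 epithelial markers 7 were above background on all arrays, CDX1 on none and VIL1 only in Caco-2. None of 6 fibroblast markers was above background on any array, and of the leukocyte and endothelial markers measured only LYZ (in Caco-2) and VWF were.

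Of the 9 genes, 8 passed the expression filter and EGF did not. All 3 EGF probe sets lay below background on every array, the brightest at 3.75 with BORIS siRNA and 3.76 with control siRNA in HCT116, and at 3.90 and 4.08 in Caco-2. No fold is given for EGF. The other genes had between 1 and 8 probe sets, and 25 of their 29 were above background on at least 1 array.

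**Figure D1:**
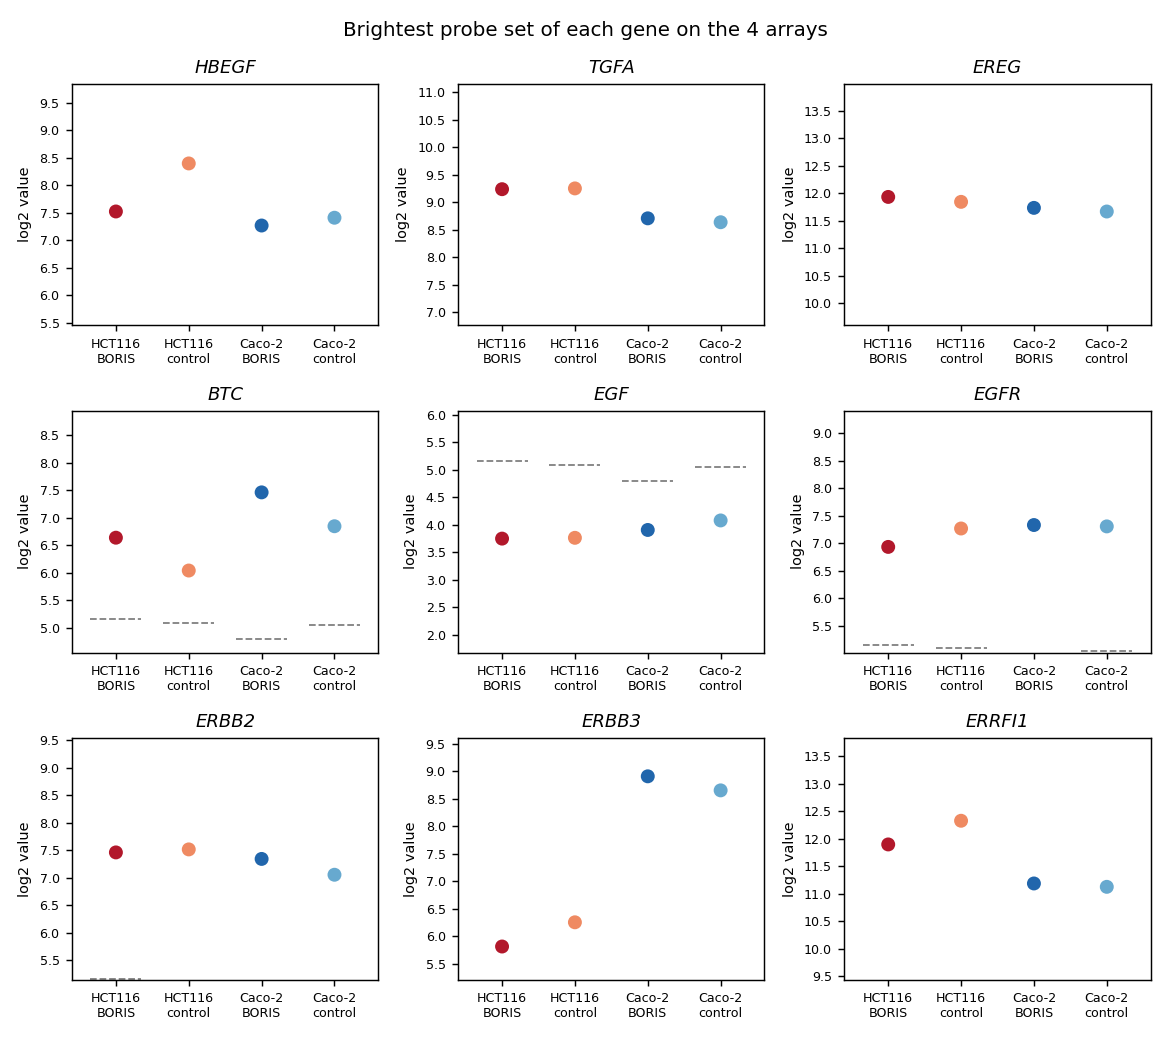
Log2 signal (vertical axis) of the brightest probe set of each member gene on the 4 arrays, with BORIS siRNA left of control siRNA and HCT116 left of Caco-2. Each panel spans its own range of log2 values, points are single arrays, and dashes give background where it lies in range; BTC is higher with BORIS siRNA in both lines, and ERBB3 is far higher in Caco-2.

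BTC, which encodes betacellulin, a ligand of EGFR and ERBB4, was the 1 member higher with BORIS siRNA by 1.5-fold or more in both lines. Its brightest probe set read 6.64 with BORIS siRNA and 6.04 with control siRNA in HCT116. In Caco-2 it read 7.46 with BORIS siRNA and 6.85 with control siRNA. The differences, 0.60 and 0.62 on the log2 scale, were near equal. The second BTC probe set read 5.67 with BORIS siRNA and 5.26 with control siRNA in HCT116, and 6.81 and 6.39 in Caco-2. Its differences of 0.41 and 0.42 were smaller and also near equal. BTC stood 439th highest of 10631 expressed genes in HCT116 and 247th highest of 10389 in Caco-2. Over all genes expressed in both lines, 0.477% were higher by 1.5-fold or more in both. BTC missed that limit in both lines with the mean of its probe sets or with 16 added to the signals, and in Caco-2 after quantile normalization.

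With 1 array a group there is no test within a line. A common effect of the siRNA in the 2 lines was tested with limma over 11165 genes. The spread was the disagreement of the lines, drawn toward that of other genes of like signal. With 5.49 prior degrees of freedom against 1 residual, most weight lay on the other genes. For BTC the common effect was 0.61 (SE 0.18), with an unadjusted p of 0.0141 and a limma adjusted p of 0.769. BTC thus did not pass the test, although both lines showed the direction. Its own residual SD was 0.0094, so its SE comes mostly from the spread of other genes. In all, 0% of genes passed; 670 had an unadjusted p under 0.05.

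HBEGF, the heparin-binding ligand of EGFR and ERBB4 and a gene switched on by ERK in many cells, showed the largest siRNA difference among the members' brightest probe sets, in HCT116. It read 7.53 with BORIS siRNA and 8.40 with control siRNA there, a difference of -0.87 and the 280th lowest of 10631 genes. In Caco-2 it read 7.27 with BORIS siRNA and 7.41 with control siRNA, a difference of -0.14. The HCT116 control array thus stood above the other 3, which lay within a narrow range. A dim second probe set read 4.58 with BORIS siRNA and 5.31 with control siRNA in HCT116. The BORIS value was below background there, which makes it lower by at least 0.16 on the log2 scale. In Caco-2 it read 5.02 with BORIS siRNA and 4.85 with control siRNA, both too near background or below it to give a direction. The shared effect of HBEGF was -0.51 (SE 0.23, limma adjusted p 0.769).

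EREG, which encodes epiregulin, a ligand of EGFR and ERBB4, differed little between siRNAs on its brightest probe set. It read 11.94 with BORIS siRNA and 11.85 with control siRNA in HCT116, against 11.74 and 11.67 in Caco-2. A dimmer EREG probe set read 6.90 with BORIS siRNA and 5.92 with control siRNA in HCT116, and 6.91 and 6.60 in Caco-2. Its differences of 0.98 and 0.31 were not shared by the other 3 probe sets, which ranged from 0.09 to 0.29 in HCT116 and from -0.01 to 0.07 in Caco-2. TGFA, which encodes transforming growth factor alpha, read 9.24 with BORIS siRNA and 9.25 with control siRNA in HCT116, and 8.71 and 8.64 in Caco-2. Neither ligand reached 1.5-fold on its brightest probe set in either line.

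EREG, AREG and BTC lie next to each other on chromosome 4, after EPGN, the gene of epigen, in the order of protein-coding genes. EPGN was below background on all 4 arrays. EREG differed by 0.09 in HCT116 and 0.07 in Caco-2 where BTC differed by 0.60 and 0.62, so EREG did not share the size of the BTC difference on its brightest probe set.

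Of the receptors, EGFR read 6.94 with BORIS siRNA and 7.27 with control siRNA in HCT116, and 7.33 and 7.31 in Caco-2. ERBB2 read 7.46 with BORIS siRNA and 7.51 with control siRNA in HCT116, and 7.34 and 7.05 in Caco-2. ERBB3 read 5.82 with BORIS siRNA and 6.26 with control siRNA in HCT116, and 8.91 and 8.66 in Caco-2. On these brightest probe sets all 3 receptors read lower with BORIS siRNA in HCT116 and higher in Caco-2, and none reached 1.5-fold. For the smallest of these differences the direction depended on the normalization: ERBB2 differed by 0.02 in HCT116 after quantile normalization and by 0.0016 after a loess correction, and EGFR by -0.03 in Caco-2 after quantile normalization. The other probe sets were mixed. The second EGFR probe set above background on all 4 arrays read 6.03 with BORIS siRNA and 6.52 with control siRNA in HCT116, and 6.32 and 6.12 in Caco-2. A dimmer ERBB2 probe set read 5.78 with BORIS siRNA and 6.18 with control siRNA in HCT116, and 6.22 and 5.62 in Caco-2, where its difference of 0.59 was past 1.5-fold. The second ERBB3 probe set read 6.30 with BORIS siRNA and 6.66 with control siRNA in HCT116, and 6.31 and 6.79 in Caco-2, lower in both lines. The dimmest ERBB3 probe set was below background in HCT116 and read 6.58 with BORIS siRNA and 6.32 with control siRNA in Caco-2, in the direction of the brightest one there.

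ERRFI1, also called MIG6, encodes a feedback inhibitor that binds the kinase domain of EGFR and is induced by EGFR signalling. Its single probe set read 11.89 with BORIS siRNA and 12.33 with control siRNA in HCT116, and 11.18 and 11.12 in Caco-2. The difference was -0.43 in HCT116 and 0.06 in Caco-2.

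Read together, 2 of the 8 expressed members were higher and 6 lower with BORIS siRNA in HCT116, with a median of -0.19 beside -0.048 over all expressed genes. The split was 4 and 4 under quantile normalization and under a loess correction. In Caco-2, 7 were higher and 1 lower, with a median of 0.069 beside 0.0026 over all expressed genes, and 6 were higher after quantile normalization. The shares over all expressed genes were 44.5% higher and 55.4% lower in HCT116, and 50.5% higher and 49.4% lower in Caco-2. No member differed 2-fold in either line. Of all expressed genes, 0.583% were higher and 1.45% lower by 2-fold in HCT116, and 0.404% were higher and 0.0481% lower in Caco-2. At 1.5-fold, a limit chosen after the data were seen, BTC was higher and HBEGF lower in HCT116, where 4.36% of genes were higher and 9.18% lower. These are 464 and 976 genes, or 603 and 804 after quantile normalization. In Caco-2 BTC alone passed 1.5-fold, where 2.78% of genes were higher and 1.14% lower. The difference between the lines in the siRNA difference was -0.73 for HBEGF, -0.70 for ERBB3 and -0.49 for ERRFI1 on the log2 scale, HCT116 minus Caco-2, and could not be tested with 4 arrays.

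**Figure D2:**
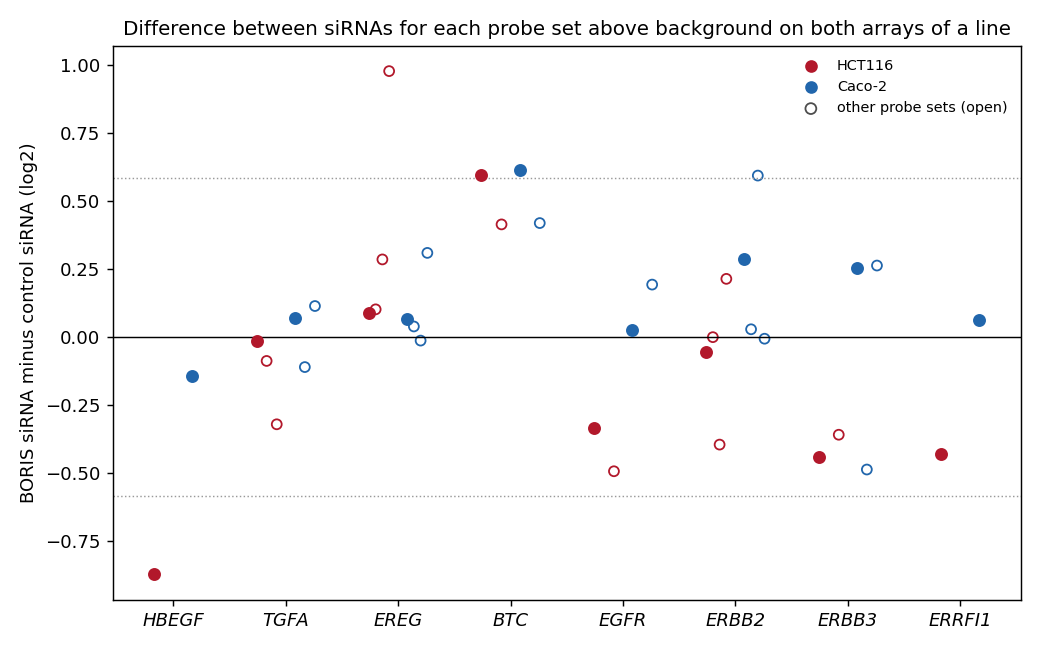
Log2 difference, BORIS siRNA minus control siRNA (vertical axis), for each member gene (horizontal axis), with HCT116 in red left of Caco-2 in blue. Filled points are the brightest probe set, open points the other probe sets above background on both arrays of that line, and dotted lines mark 1.5-fold; BTC lies at 0.60 and 0.62, and HBEGF at -0.87 and -0.14.

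The lines themselves differed for 4 of the 8 members, tested in the same limma fit with 2 arrays a line. ERBB3 was lower in HCT116 than in Caco-2, with a log2 difference of -2.75 (SE 0.22, limma adjusted p 0.000245), or -1.83 with the mean of its probe sets. The difference was -3.10 with BORIS siRNA and -2.40 with control siRNA. The dimmest ERBB3 probe set, below background in HCT116, was lower there by at least 1.33. The second ERBB3 probe set, at 6.30 to 6.79 on the 4 arrays, gave -0.07 with a limma adjusted p of 0.789 over probe sets. The probe sets that stand for ERBB3, HBEGF, EGFR and ERRFI1 are of kinds that can bind related transcripts, named _x_at and _s_at.

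BTC was also lower in HCT116 than in Caco-2, with a difference of -0.82 (SE 0.18, limma adjusted p 0.0139). Its second probe set gave -1.14 (SE 0.20, limma adjusted p 0.00317 over probe sets). ERRFI1 was higher in HCT116, with a difference of 0.96 (SE 0.15, limma adjusted p 0.00357). TGFA was higher in HCT116 by 0.57 (SE 0.17, limma adjusted p 0.0382), a call lost with no filter on dim genes (0.0570) and with the mean of its probe sets (0.134). HBEGF was 0.62 higher (SE 0.23) and missed the threshold at a limma adjusted p of 0.0714, with a difference of 0.26 with BORIS siRNA and 0.99 with control siRNA. It passed after quantile normalization and a loess correction (0.00271 and 0.00293) and with 16 added to the signals (0.0477). ERBB2, EREG and EGFR differed by 0.29, 0.19 and -0.22, with limma adjusted p of 0.270, 0.223 and 0.409. For EREG and EGFR the direction depended on the probe set. Those above background on at least 1 array ranged from -0.35 to 0.40 for EREG and from -0.22 to 0.26 for EGFR. Over all 11165 genes, 19.4% were higher and 19.8% lower in HCT116, and the 2 members higher and 2 lower of 8 are read against those shares.

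**Figure D3:**
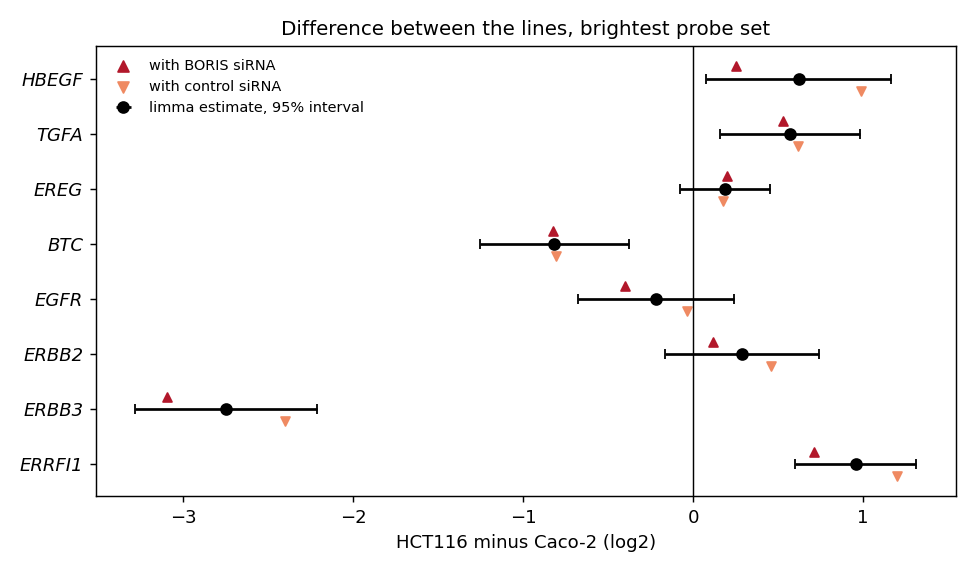
Log2 difference, HCT116 minus Caco-2 (horizontal axis), for the 8 expressed member genes. Points are limma estimates with 95% intervals, upward triangles the difference with BORIS siRNA and downward triangles that with control siRNA; ERBB3 lies at -2.75 and ERRFI1 at 0.96.

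The genes around the receptors were described from lists chosen with earlier results of these data known. Their counts stand beside all expressed genes, of which 55.4% were lower with BORIS siRNA in HCT116, and 50.5% higher and 49.4% lower in Caco-2. Of the other ERBB ligands and receptor, 1 of 6 was expressed. It was NRG1, a ligand of ERBB3 and ERBB4, at 7.53 with BORIS siRNA and 6.65 with control siRNA in HCT116, and 5.24 and 5.91 in Caco-2. NRG1 was thus higher with BORIS siRNA in HCT116 (difference 0.88) and lower in Caco-2 (difference -0.67), and higher in HCT116 than in Caco-2 by 1.51 (SE 0.36, limma adjusted p 0.0175). Its receptor gene ERBB3 ran the other way in all 3 differences on its brightest probe set. The second ERBB3 probe set gave -0.36 in HCT116, -0.49 in Caco-2 and -0.07 between lines. The dimmest, below background in HCT116, gave 0.26 in Caco-2 and was lower in HCT116. With the mean of its probe sets NRG1 did not reach the array median on any array and was not tested, so these values rest on its brightest probe set.

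Of 8 genes of ligand shedding, 6 were expressed in HCT116 (median -0.17, 3 lower) and 7 in Caco-2 (median 0.15, 5 higher). The HCT116 median was 0.22 with the mean of each gene's probe sets. In that setting RHBDF1 did not reach the array median in HCT116 and drops out. RHBDF1, which encodes an inactive rhomboid that helps ADAM17 mature, read 5.18 with BORIS siRNA and 6.43 with control siRNA in HCT116, and 8.48 and 8.56 in Caco-2. It was the 1 gene of the list past 2-fold, at -1.24 in HCT116, or -0.96 with 16 added to the signals, and rests there on its brightest probe set. The HCT116 value of RHBDF1 with BORIS siRNA, 5.18, lay just above that array's background of 5.15. ADAM17, the main protease of TGFA and HBEGF, read 8.91 and 9.46 in HCT116 and 8.26 and 8.13 in Caco-2, for BORIS and control siRNA in each line. ADAM15, a related protease, was higher with BORIS siRNA by 0.56 in HCT116 and 0.82 in Caco-2. Between lines RHBDF1 was lower in HCT116 (difference -2.71, limma adjusted p 0.000800, or -1.35 with the mean of its probe sets), RHBDL2, a rhomboid protease that can cut EGF, was lower too (by at least 1.73, since both HCT116 arrays were below background), and ADAM17 was higher (0.99, limma adjusted p 0.0130). The ADAM17 call was lost with the mean of its probe sets (0.40, limma adjusted p 0.116). In all, 1 shedding gene was higher, 2 lower and 4 not called between lines, beside 19.4% higher and 19.8% lower of all tested genes.

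Of 8 adaptor and RAS exchange genes, 6 were lower with BORIS siRNA in HCT116 (median -0.30) and 6 were higher in Caco-2 (median 0.26, or 0.027 with the mean of probe sets). None reached 1.5-fold. SHC1, an adaptor that binds active receptors, differed by -0.48 in HCT116 and -0.00445 in Caco-2. Of the kinases from RAF to ERK with their RAS switches, 5 of 10 had a value and the rest were not analysed here. Of these 5, 4 were lower in HCT116 (median -0.20) and all 5 in Caco-2 (median -0.020), none by 1.5-fold. MAPK3, which encodes the kinase ERK1, was higher in HCT116 than in Caco-2 by 1.2 (SE 0.18, limma adjusted p 0.00275). Of the PI3K-AKT list, 5 of 8 genes had a value, with medians of -0.20 in HCT116 and 0.058 in Caco-2 and none past 1.5-fold. PIK3R1, a regulatory subunit of PI3K, was lower in HCT116 than in Caco-2 (difference -1.44, SE 0.18, limma adjusted p 0.00143).

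Of 14 genes that take receptors down, 13 were expressed, 8 of them lower with BORIS siRNA in HCT116 (median -0.19) and 9 higher in Caco-2 (median 0.093). LRIG1, a membrane protein that promotes receptor degradation, read 5.69 with BORIS siRNA and 6.80 with control siRNA in HCT116, and 7.51 and 7.60 in Caco-2. CBL, the ubiquitin ligase of EGFR, read 8.52 and 9.23 in HCT116, and 8.90 and 8.76 in Caco-2, BORIS siRNA before control siRNA in each line. LRIG1 was the 1 gene of this list past 2-fold (-1.11 in HCT116, or -0.92 with 16 added). With the mean of probe sets LRIG1 did not reach the array median in HCT116, so no HCT116 siRNA difference is given. The CBL difference of -0.71 in HCT116 was -0.33 with the mean of its probe sets. LRIG3, a relative of LRIG1, was 0.70 higher with BORIS siRNA in Caco-2, or 0.48 with the mean of its probe sets. Between lines 1 was higher in HCT116, 2 were lower and 10 were not called, beside 19.4% higher and 19.8% lower of all tested genes.

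The 18 ERK target and feedback genes, which ERK signalling switches on in many cells, were all lower with BORIS siRNA in HCT116, with a median of -0.54. As this list was chosen with earlier results of these data known, its counts are a description and not a test. By 2-fold or more 4 of the 18 were lower, beside 1.45% of all expressed genes. These were DUSP5, an ERK phosphatase (-1.12), EGR1, an immediate early transcription factor (-1.09), CCND1, which encodes cyclin D1 (-1.09), and SPRY4, a feedback inhibitor of RAS signalling (7.21 with BORIS siRNA and 8.21 with control siRNA). SPRY4 missed 2-fold after quantile normalization (-0.94), the loess correction (-0.95) and with 16 added (-0.93), and EGR1 with the mean of its probe sets (-0.81). SPRY4 has no HCT116 siRNA difference with the mean of probe sets or without _x_at and _s_at probe sets. DUSP5 read 9.69 with BORIS siRNA and 10.80 with control siRNA in HCT116, and 8.33 and 8.32 in Caco-2. In Caco-2 the list was split, 10 higher and 8 lower, with a median of 0.004 that turned negative under 4 of the alternatives. HBEGF and ERRFI1, also known as ERK targets, differed by -0.87 and -0.43 in HCT116 and by -0.14 and 0.06 in Caco-2. Between lines, 7 of the 18 were higher in HCT116, 6 were lower and 5 were not called. Over all genes tested by limma, 19.4% were higher and 19.8% lower in HCT116. Of all expressed genes, 55.4% were lower with BORIS siRNA in HCT116.

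**Figure D4:**
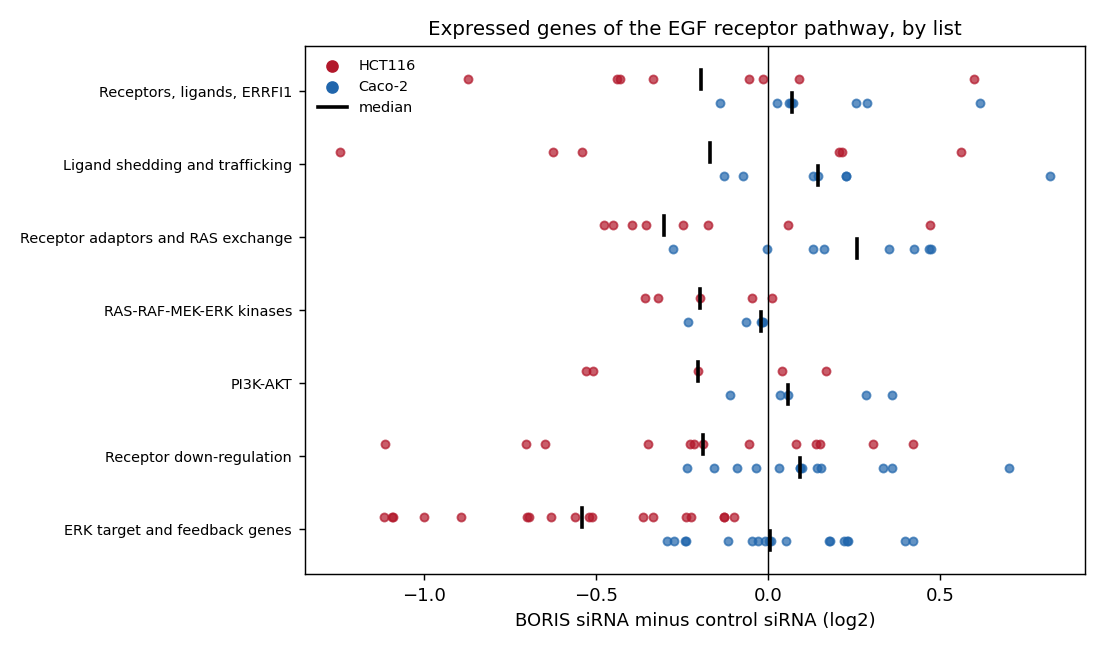
Log2 difference, BORIS siRNA minus control siRNA (horizontal axis), for the expressed genes of each pathway list, with HCT116 in red above Caco-2 in blue. Points are genes and bars medians, and the lists were chosen with earlier results of these data known. The ERK target genes all lie below 0 in HCT116, with a median of -0.54, and around 0.004 in Caco-2.

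The 3 genes, other than the member, whose values lay nearest to each member over the 4 arrays, after each gene was centred on its mean, were found among 11164 candidates. Likeness was measured as the Euclidean distance of the 4 log2 values. For HBEGF they were SLC22A23 (distance 0.033), CRYBG2 (0.087) and RBMS1 (0.097). BTC lay nearest to TWSG1 (0.12), FZD3 (0.13) and ZMYM2 (0.14), which are farther than the nearest genes of HBEGF. ERBB3 lay nearest to RAB11FIP4 (0.065), RHBDL2 (0.082) and HOXC4 (0.13). RHBDL2 is in the shedding list above. The HCT116 values of RHBDL2 and HOXC4 lay below background, so their distances are those of the values as measured. ERRFI1 lay nearest to IFITM2, ANKRD37 and GPHN, at 0.056 to 0.062. The nearest genes of EREG, TGFA, ERBB2 and EGFR were MIPEP, HECTD2, AP3B1 and ANKRD52. With 4 arrays such likeness is a description of these arrays.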

How the data were processed

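RNA of HCT116 and Caco-2 cells was hybridised to 4 PrimeView arrays, as biotin-labelled cRNA from a 3' in vitro transcription kit, per the labels' protocols. The deposited values are log2 expression per probe set, between 2.13 and 14.17. How the authors corrected, normalized and summarised them is not given in the sources used here.

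Probe sets were named through the platform annotation. Of 49395, 44988 were paired with 1 gene, and 18132 genes were each given by their brightest probe set. The members, lists and limits were chosen with earlier results of these data known. Within a line the difference is BORIS siRNA minus control siRNA, without a test. The named genes were all members, up to 4 genes a list with the largest difference in a comparison, and the 3 genes nearest to each member in pattern. CTCFL, CTCF, EPGN and the markers served as checks.

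limma 3.58.1 in R 4.3.3 (lmFit, eBayes with trend) was run on 11165 genes with line and siRNA as terms, Benjamini-Hochberg adjusted over all genes, at 0.05. Its residual has 1 degree of freedom, and eBayes draws each gene's spread toward that of genes of like signal (5.49 prior degrees of freedom). The 2 arrays of a line differ in siRNA, so p-values rest on the spread between these arrays only. The fit was tested on simulated data. A value below background was raised to it where a bound is given. Alternatives were no filter, a filter at background, the mean of probe sets, quantile normalization, a loess correction, 16 added to the signals, and only probe sets not of the _x_at or _s_at kind. Tables and figures were made with Python 3.11.15, pandas 2.3.3 and matplotlib 3.10.9. Promoters came from RefSeq.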

Additional observations from a re-analysis of the deposited data

Results flagged for a closer look

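ERBB3 was the 1 member whose siRNA difference pointed in opposite directions in the lines and lay outside the middle range of expressed genes in both. On its brightest probe set the difference of BORIS siRNA minus control siRNA was -0.4406 in HCT116 and 0.2557 in Caco-2, on the log2 scale. The difference between the lines was not tested, since 4 arrays leave no residual for it. The probe sets disagree: the second gave -0.36 in HCT116 and -0.49 in Caco-2, and the dimmest gave 0.26 in Caco-2 and was below background in HCT116.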

How the results depend on the processing

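Of 886 recomputed values, 840 were counted as unchanged. A tested value was so counted when its call stayed the same, whatever its direction. A value with no test was so counted when it moved by less than 0.20, the spread used for such values. Counts of members that rose from 2 to 3 were also left among the unchanged. EGFR between lines was among them, although it went from -0.22 to 0.06 without _x_at and _s_at probe sets. Of the rest, 27 moved further, 10 lost and 9 gained a call. The members past limma that were higher in HCT116 than in Caco-2 numbered 2 in the main setting. They numbered 1 with no filter, with the mean of probe sets and without _x_at and _s_at probe sets. In the last of these ERRFI1 has no probe set, and TGFA still passed (limma adjusted p 0.0334). They numbered 3 after quantile normalization, the loess correction and with 16 added. Those lower numbered 1 without _x_at and _s_at probe sets, where ERBB3 gave -0.07 (limma adjusted p 0.797). At 1.5-fold, the members higher with BORIS siRNA numbered 0 in HCT116 with the mean of probe sets and with 16 added, and 0 in Caco-2 with those and with quantile normalization; the members lower in HCT116 numbered 0 without _x_at and _s_at probe sets, where HBEGF has no probe set that passes. BTC ranged over the alternatives from 0.50 to 0.69 in HCT116 and from 0.52 to 0.62 in Caco-2, and its shared effect had a limma adjusted p of 0.158 to 0.867. The shared test called 57 genes higher and 49 lower after quantile normalization and 59 and 42 after the loess correction, and 0 otherwise; no member was among them. The shedding list's median in HCT116 was 0.22 with the mean of probe sets, where RHBDF1 has no HCT116 siRNA difference and drops out. EGFR did not pass the filter in that setting either, which left 7 members. Beyond genes that drop out of a setting, the cause of these changes was not tested. Signals near background limit EGF, CTCFL, the second HBEGF probe set and the RHBDF1 difference in HCT116. Leaving out an array was not possible, since each group holds 1. The siRNA contrast of the limma fit pairs the arrays within each line. Pairing of replicate cultures was not possible, since the labels name none.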
